A study of Homo sapiens with 6 samples.

Results

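The nuclear genes for subunits of the oxidative phosphorylation complexes were examined in A2780 cells with and without knockdown of USP39, a protein of the spliceosome. Members were chosen by symbol alone: all genes whose names begin with NDUFA, NDUFB, NDUFC, NDUFS or NDUFV and a digit, the SDHA to SDHD genes, and names that begin with UQCR, with COX4 to COX8 or with ATP5. This rule found 80 of the 16571 gene symbols in the count table, of which 35 were assigned to complex I, 2 to complex II, 9 to complex III, 17 to complex IV and 17 to complex V. A2780 is an established human ovarian cancer cell line, which the labels describe as serous. The 3 control libraries (pGIPZ-NC) came from A2780 cells infected with lentivirus carrying the pGIPZ vector with a negative control, and the 3 knockdown libraries (shUSP39) from A2780 cells infected with lentivirus carrying a hairpin against USP39. Both groups therefore share the cell line, the virus and, per the study's methods, the vector. Which hairpin each knockdown library carried is not given, and the groups are infected cultures of 1 line. The targeted gene was not analysed here, and it therefore gives no check of the labels.

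Oxidative phosphorylation takes electrons from nutrients and uses them to make ATP at the inner mitochondrial membrane. Complex I accepts electrons from NADH and complex II from succinate, complex III passes them to cytochrome c, and complex IV hands them to oxygen, while complexes I, III and IV pump protons that drive the ATP synthase, complex V. Complexes I, III, IV and V combine subunits made from nuclear genes with a few made from mitochondrial DNA, so that both genomes have to supply matching parts. Mitochondrially encoded subunits were not analysed here, nor were SDHA, SDHC, NDUFS4, COX7A2, COX7B2 and ATP5L. The symbol rule also takes in ATP5S, COX7A2L and the readthrough gene ATP5J2-PTCD1, which are not fixed subunits, and it leaves out subunits with other names, such as CYC1 of complex III. NDUFA4, named for complex I, was counted in complex IV, where current knowledge places its protein.

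Libraries held between 28294819 and 32939264 counts, and the pairwise Pearson correlation across genes of log2(CPM + 1) was 0.996 within groups and 0.983 to 0.985 between them, with CPM standing for each gene's count scaled per 1000000 of the TMM-scaled library size. A count above 0 was found for 12662 to 12809 genes in the control libraries, and for 12819, 15446 and 14890 genes in shUSP39 replicates 1, 2 and 3, and the part of this difference in the results below was not tested. Of 8 epithelial carcinoma markers in the table, PAX8, EPCAM, CDH1 and WFDC2 had means of 0.167 to 3.17 counts and KRT7 of 9.17. KRT18 had a mean of 848 counts and rose (log2 fold change 0.56, adjusted p = 1.51e-05), KRT8 fell from 26 to 37 counts in control libraries to 0 to 3 in knockdown libraries (adjusted p = 4.13e-05), and MUC16, which was not tested, had 5, 1 and 1 counts in control and 6, 150 and 71 in knockdown libraries. Of 4 leukocyte markers in the table, PTPRC and CD3E had means of 2.33 and 1.33 counts, LYZ had 8.5 and CD68 had 337, and neither LYZ nor CD68 passed the test. None of 4 endothelial markers passed the count filter. Over 5 fibroblast markers the summed CPM was 1133 to 1197 in the control and 454 to 474 in the knockdown libraries, nearly all of it from COL1A2. Of these markers 4 were tested, and COL1A2, LUM and DCN fell together, each past 2-fold (log2 fold changes -1.34, -3.63 and -3.81), while COL1A1 did not pass and PDGFRA had a mean of 1.17 counts. The part of these markers in the results below was not tested.

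The study sequenced these cells to ask if loss of USP39 changes splicing across the transcriptome, and here the gene counts are compared. Knockdown libraries held less RNA of oxidative phosphorylation genes in sum. Summed over all 80 members, the level was 13707, 13765 and 13467 CPM in the control libraries and 12528, 12231 and 12447 CPM in the knockdown libraries. All knockdown sums lay below all control sums, and the mean dropped by 9.12%, from 13646 ± 158 to 12402 ± 154 CPM (SD, n = 3 each). Members took 1.34 to 1.36% of all counts in control libraries and 1.24 to 1.26% in knockdown libraries. In bulk RNA, fewer cells of a kind and less RNA per cell cannot be told apart.

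Of the 73 members that passed the filter on low counts, 22 fell at an adjusted p under 0.05 (30.1%), none rose, and 51 did not pass (edgeR quasi-likelihood test with Benjamini-Hochberg adjustment over all 10695 genes tested). Across all genes tested, 17.5% fell, 16.1% rose and 33.6% passed in either direction. NDUFA10 had an unadjusted p under 0.05 in the upward direction, and 29 members had one in the downward direction. No member passed the additional limit of a 2-fold change, against 6.81% of all genes tested. The 22 falls ranged from 0.14 to 0.51 on the log2 scale, with a median log2 fold change of -0.22, which correspond to 9.05 to 29.9% less RNA. The median log2 fold change over the 73 members was -0.10, beside 0.01 over all genes tested, and 55 of the 73 were negative. In 31 members all 3 knockdown libraries lay below all 3 control libraries, as in 22.5% of all genes tested. In 3 members, NDUFA2, NDUFA10 and COX4I1, all lay above, as in 21.7% of all genes tested. Of the 22 members that fell, 21 showed no overlap between groups, while the groups of NDUFB1 overlapped. The falls were called from the same libraries, so this lack of overlap is no separate support for them. With shUSP39 replicate 1 as the only knockdown library, the one closest to the controls in its number of detected genes, 15 members fell, 14 of them among the 22, beside 10.8% of all genes tested.

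**Figure D1:**
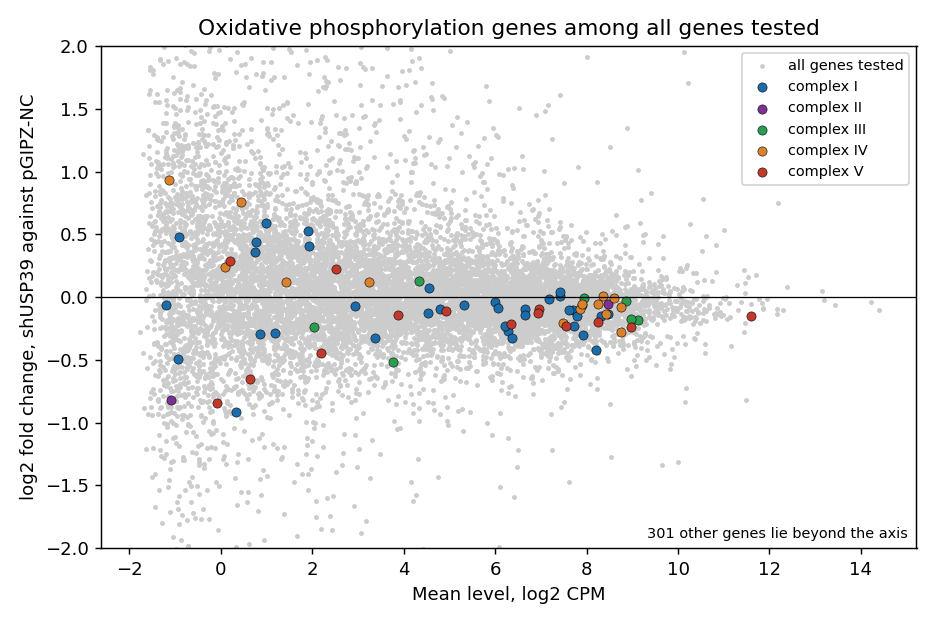
Each point is a gene, with its mean level in log2 CPM on the horizontal axis and its log2 fold change (shUSP39 against pGIPZ-NC) on the vertical axis, and coloured points are the tested oxidative phosphorylation genes by complex. Members at high levels form a narrow band just under 0, while members at low levels scatter on both sides, and 301 other genes lie beyond the axis limits of 2.

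How many members could be judged depended on their counts. Of the 41 members with a mean of at least 1000 counts over the 6 libraries, 20 fell (48.8%), none rose and 38 had a negative fold change. Among all 3779 genes tested at that depth 33.1% fell, 19.7% rose and 58.2% were negative, with a median log2 fold change of -0.05 beside -0.13 for the members. Of the 32 tested members below 1000 counts, UQCRH and NDUFB5 fell and the other 30 did not pass, and their fold changes ran from -0.91 to 0.93. NDUFB5 (log2 fold change -0.33, adjusted p = 0.0416) did not pass under 10 of 17 alternative settings, and NDUFB9 under 6 of 17. The members not tested were UQCRB, ATP5C1, COX4I2, COX6A2, COX8C, ATP5L2 and ATP5J2-PTCD1, each with a mean of 13 counts or fewer.

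**Figure D2:**
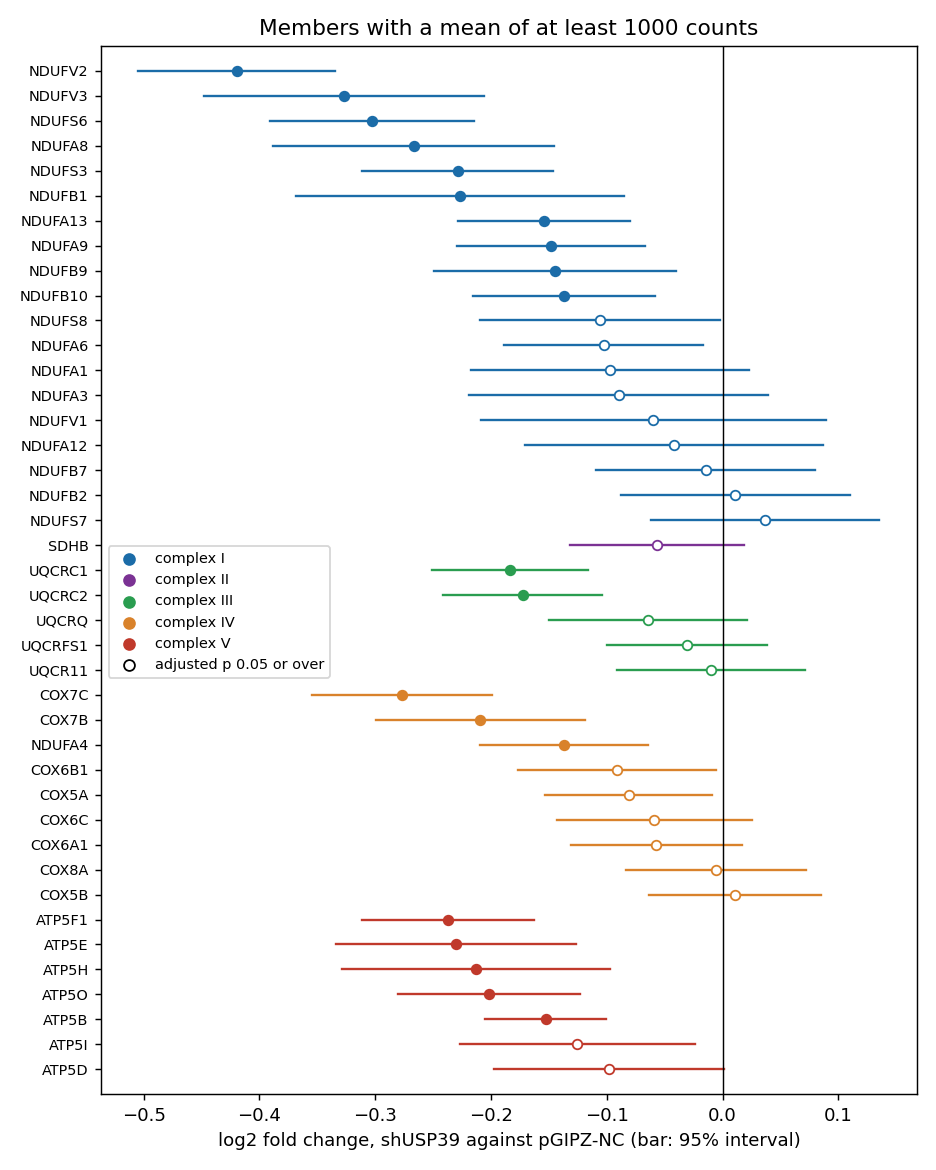
Points are the log2 fold changes (shUSP39 against pGIPZ-NC) of the 41 members with a mean of at least 1000 counts, bars are their 95% intervals, filled points passed an adjusted p under 0.05 and colours mark the complex. Of these members 38 lie left of 0, and NDUFS7, NDUFB2 and COX5B lie just right of it with intervals that include 0.

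A member's count level went with how many transcripts RefSeq curates for the gene. The 31 constitutively expressed subunits with 1 curated transcript had at least 2074 mean counts each, and their median was 7624. The 16 subunits with 2 curated transcripts had a median of 1598 counts, and the 22 with 3 or more had a median of 114, with only NDUFB9 above 1000. Subunits that a working complex needs were among the low ones, such as ATP5A1, the alpha subunit of the ATP synthase (46 counts), ATP5C1, its gamma subunit (1.7 counts), NDUFS1 of complex I (14 counts) and UQCRB of complex III (13 counts). For such genes the count cannot be read as the gene's expression level, and how reads shared by several transcripts were counted is not given in the sources used here. Among the 33 tested members with 1 curated transcript, 16 fell (48.5%) and none rose, beside 25.2% and 23.5% of all genes of that kind. This comparison was not matched for depth, and among all genes tested with at least 1000 mean counts 33.1% fell.

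**Figure D3:**
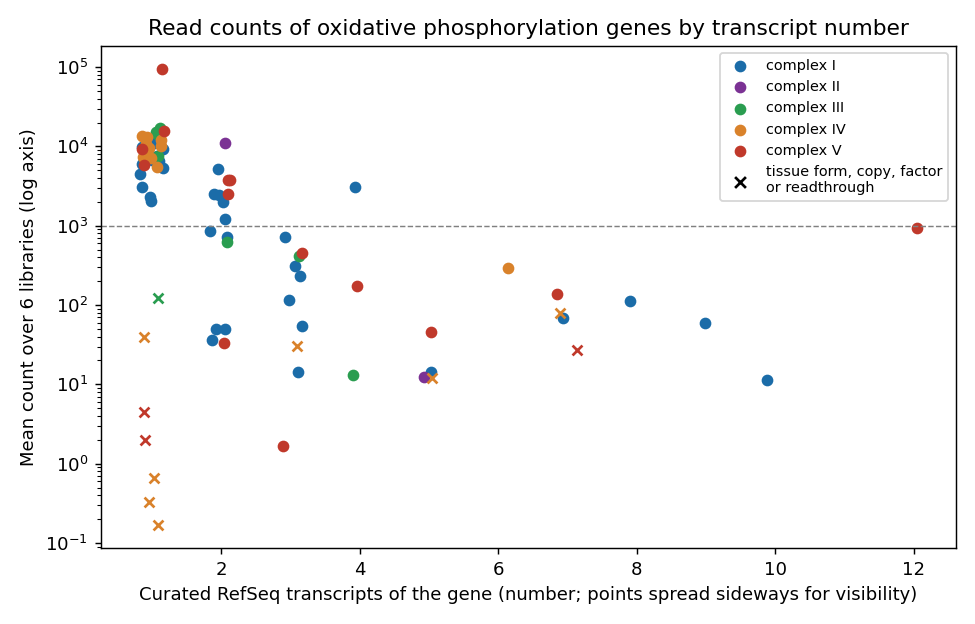
The horizontal axis is the number of curated RefSeq transcripts of each member (points are spread sideways for visibility), the vertical axis its mean count over 6 libraries on a log axis, colours mark the complex, and crosses mark tissue forms, copies, factors and the readthrough gene. Constitutive subunits with 1 transcript all lie above the dashed line at 1000 counts, and those with 3 or more lie below it apart from NDUFB9.

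Promoters of many oxidative phosphorylation genes carry sites for NRF1, for the ETS factor GABP and for YY1, transcription factors known to regulate mitochondrial genes. Of the 80 members, 63 matched a RefSeq promoter of 300 bases (GRCh38.p14; 250 bases before to 50 after the annotated start). The letters GCATGCGC, the core of the NRF1 site, stood on either strand in 13 of the 63 (20.6%), against 4.26% of 15842 promoters of protein-coding genes. The ETS core CCGGAAG stood in 18 (28.6%, against 14.2%) and the YY1 core AAGATGG in 14 (22.2%, against 6.40%). Each motif was searched on both strands, and the ETS and YY1 cores can overlap in the letters AAG. Of the 19 members that fell and have an entry, 2 held the NRF1 core, 4 the ETS core and 6 the YY1 core. Below are the last 150 bases of the entry, from 100 before the start, for 6 members that fell and lead their complexes, in lower case with any of the 3 motifs in capitals. They were chosen after the motifs had been found, to show 4 with the YY1 core near the start, 1 with the NRF1 core and the largest fall above 1000 counts. Of the other leading members with an entry, ATP5O held the YY1 core, NDUFS3 and UQCRH the ETS core, and COX7B and NDUFA4 none of the 3.
NDUFS6, chr5:1801307-1801456, plus strand: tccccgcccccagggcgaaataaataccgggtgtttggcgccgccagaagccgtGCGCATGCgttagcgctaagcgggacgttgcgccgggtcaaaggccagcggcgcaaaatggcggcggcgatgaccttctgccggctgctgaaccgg
NDUFV2, chr18:9102599-9102748, plus strand: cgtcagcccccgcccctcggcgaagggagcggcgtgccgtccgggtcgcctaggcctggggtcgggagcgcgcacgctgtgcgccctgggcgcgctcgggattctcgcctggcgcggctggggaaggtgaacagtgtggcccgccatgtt
UQCRC1, chr3:48609597-48609746, minus strand: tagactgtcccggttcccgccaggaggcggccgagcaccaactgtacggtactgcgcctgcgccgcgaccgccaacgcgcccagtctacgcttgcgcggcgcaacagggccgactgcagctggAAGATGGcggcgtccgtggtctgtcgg
UQCRC2, chr16:21953261-21953410, plus strand: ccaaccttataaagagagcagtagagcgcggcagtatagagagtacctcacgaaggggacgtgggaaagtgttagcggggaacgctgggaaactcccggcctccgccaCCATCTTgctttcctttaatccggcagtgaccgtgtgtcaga
COX7C, chr5:86617841-86617990, plus strand: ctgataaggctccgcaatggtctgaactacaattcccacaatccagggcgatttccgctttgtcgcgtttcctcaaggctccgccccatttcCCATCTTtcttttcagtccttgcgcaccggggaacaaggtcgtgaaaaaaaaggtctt
ATP5F1, chr1:111449364-111449513, plus strand: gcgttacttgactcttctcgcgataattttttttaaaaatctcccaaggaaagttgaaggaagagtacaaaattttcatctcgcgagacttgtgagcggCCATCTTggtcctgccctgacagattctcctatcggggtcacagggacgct
UQCRC1, UQCRC2, COX7C and ATP5F1 each hold the YY1 core near the start, with its leftmost base at 23, 8, -8 and -1 from the annotated start base. In the last 3 of these genes the core lies on the opposite strand. The letters AAGATGG include ATG, and whether a match covers a start codon was not tested. NDUFS6 holds the NRF1 core on the opposite strand at -46. In NDUFV2 none of these letters occurs in the entry. A match is a description of the sequence, not a site shown to be bound.

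Complex I had the most members, and 11 of its 35 fell (31.4%), beside 17.5% of all genes tested. At a mean of at least 1000 counts 10 of 19 fell (52.6%), beside 33.1% of all genes tested at that depth. Of the 15 members in the matrix arm, where NADH is oxidised, 5 fell (33.3%). Of the 20 in the membrane arm, the proton-pumping part, 6 fell (30%). The median log2 fold changes of these arms were -0.10 and -0.11. NDUFV2, which carries an iron-sulfur cluster at the NADH-oxidising tip, had 353, 340 and 326 CPM in the control and 262, 240 and 260 CPM in the knockdown libraries. Every knockdown library lay below every control library, and the fall of 25.2% was the largest among members above 1000 counts. Its log2 fold change was -0.42 (SE 0.04, adjusted p = 5.98e-09). The gene lies at chr18:9102628-9134343 of GRCh37 on the plus strand and overlaps the antisense gene NDUFV2-AS1 on the minus strand, and since the use of strand in counting is not given, reads of the pair cannot be told apart.

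NDUFS6, a zinc-binding accessory subunit of the matrix arm, had 273, 271 and 261 CPM in control and 227, 204 and 221 CPM in knockdown libraries. These values did not overlap either (log2 fold change -0.30, SE 0.04, adjusted p = 2.50e-06). NDUFS3, a core subunit near the quinone site, had 225, 232 and 230 CPM in control and 197, 191 and 199 CPM in knockdown libraries. All of its knockdown values were below the control values (log2 fold change -0.23, SE 0.04, adjusted p = 5.01e-05). The accessory subunits NDUFV3, NDUFA8, NDUFA13, NDUFA9, NDUFB10, NDUFB1, NDUFB9 and NDUFB5 also fell, by 0.14 to 0.33 on the log2 scale.

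Core subunits of complex I did not move as a block. Of the 7 nuclear core subunits that were tested, NDUFV2 and NDUFS3 fell (28.6%, beside 17.5% of all genes tested). NDUFV1, the flavoprotein that receives electrons from NADH and sits beside NDUFV2, had 40.6, 38.3 and 43.3 CPM in control and 38.3, 39.2 and 39.7 CPM in knockdown libraries, with overlapping groups (log2 fold change -0.06, 95% interval -0.21 to 0.09, adjusted p = 0.575). NDUFS7, at the quinone site, also overlapped, with 165 to 170 CPM in control and 164 to 187 CPM in knockdown libraries (log2 fold change 0.04, 95% interval -0.06 to 0.14). The interval of NDUFS7 excludes a fall of the size measured for NDUFS3, whereas the difference between these genes was not itself tested. NDUFS8 had a log2 fold change of -0.11 (adjusted p = 0.113). NDUFS1 had a mean of 14 counts, and its interval, -0.70 to 1.65, was too wide to exclude changes of the size seen elsewhere. NDUFA10, an accessory subunit of the membrane arm, had the smallest adjusted p among members with a positive fold change (0.0709). It had 3.67, 2.12 and 3.22 CPM in control and 4.53, 3.79 and 4.63 CPM in knockdown libraries, all knockdown values being higher, at a mean of 112 counts. It passed as higher with upper-quartile scaling.

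Only 2 of the 4 complex II genes could be analysed. SDHB, the iron-sulfur subunit of succinate dehydrogenase, had 364, 365 and 361 CPM in control and 364, 340 and 345 CPM in knockdown libraries. The groups overlapped, with shUSP39 replicate 1 at the control level, and the log2 fold change was -0.06 (95% interval -0.13 to 0.02, adjusted p = 0.252). SDHD, a membrane anchor, had a mean of 12 counts and a log2 fold change of -0.82 with a 95% interval from -2.20 to 0.57, so a change was not detectable at this depth.

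In complex III 3 of 8 tested members fell (37.5%), beside 17.5% of all genes tested. At a mean of at least 1000 counts 2 of 5 fell (40%), beside 33.1% of all genes tested at that depth. The falls were in the core proteins and the hinge protein. UQCRC1, core protein 1, had 584, 600 and 593 CPM in control and 522, 530 and 513 CPM in knockdown libraries. UQCRC2, core protein 2, had 540, 527 and 519 CPM in control and 474, 466 and 467 CPM in knockdown libraries. In both genes the groups were well apart, with log2 fold changes of -0.18 (SE 0.03, adjusted p = 6.08e-05) and -0.17 (SE 0.03, adjusted p = 0.000164). UQCRFS1, the Rieske iron-sulfur subunit that carries electrons out of the quinol site, had 475, 471 and 460 CPM in control and 459, 465 and 453 CPM in knockdown libraries. Its groups overlapped at a depth of 14289 mean counts (log2 fold change -0.03, 95% interval -0.10 to 0.04, adjusted p = 0.53). UQCRQ, UQCR11 and UQCR10, small subunits, did not pass either (log2 fold changes -0.06, -0.01 and 0.13).

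UQCRH, the hinge protein that contacts cytochrome c1, had the largest fall of all members that passed, with 14.6, 14.5 and 18.8 CPM in control and 9.62, 11.1 and 12.9 CPM in knockdown libraries. The libraries did not overlap, but they spread widely at a mean of 416 counts (log2 fold change -0.51, 95% interval -0.78 to -0.25, adjusted p = 0.00253). UQCRHL, an intronless copy of UQCRH, had 4.25 to 4.53 CPM in control and 3.17 to 4.02 CPM in knockdown libraries (log2 fold change -0.24, adjusted p = 0.374). Reads may be divided between these near-identical genes, so both values are uncertain.

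In complex IV 3 of 14 tested members fell (21.4%), beside 17.5% of all genes tested, and the median log2 fold change was -0.03. At a mean of at least 1000 counts 3 of 9 fell (33.3%), near the 33.1% of all genes tested at that depth. COX7C, a small subunit with a single form, had 481, 458 and 481 CPM in control and 409, 373 and 390 CPM in knockdown libraries. The groups did not overlap, and the level dropped by 17.5% (log2 fold change -0.28, SE 0.04, adjusted p = 1.50e-06). COX7B had 195, 194 and 188 CPM in control and 175, 164 and 161 CPM in knockdown libraries, again without overlap (log2 fold change -0.21, SE 0.04, adjusted p = 0.000427). NDUFA4 had 359, 360 and 363 CPM in control and 334, 321 and 330 CPM in knockdown libraries. Its control libraries were almost equal and all knockdown libraries lay under them (log2 fold change -0.14, SE 0.04, adjusted p = 0.00315). COX5A, COX6A1, COX6B1, COX6C, COX5B and COX8A were as deeply covered, with 7138 to 13347 mean counts, and did not pass, at log2 fold changes from -0.09 to 0.01. COX8A had 380, 411 and 378 CPM in control and 381, 390 and 393 CPM in knockdown libraries, with an interval from -0.08 to 0.07 that excludes a fall of the size measured for COX7C.

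Isoforms of complex IV subunits that other tissues use had means of 0.167 to 39.5 counts. COX6B2 and NDUFA4L2 have 5 and 3 curated transcripts, so their counts are no measure of expression level. COX6A1, the widely expressed form of subunit 6A, had 307 to 319 CPM in control and 298 to 303 CPM in knockdown libraries, while its muscle form COX6A2 had at most 1 count in any library. COX4I2, the lung form of subunit 4, had 3 counts or fewer per library and COX8C, a testis form, had 1 count in 1 control library. COX6B2, the testis form of subunit 6B, and COX7A1, the muscle form of subunit 7A, had means of 12 and 39.5 counts and did not pass (log2 fold changes 0.93 and 0.76, adjusted p = 0.338 and 0.154). COX7A1 had 0.721, 0.585 and 1.59 CPM in control and 2.09, 1.14 and 1.62 CPM in knockdown libraries, so the groups overlapped. NDUFA4L2, a hypoxia-induced relative of NDUFA4, had 0.69 to 1.24 CPM in control and 0.676 to 1.83 CPM in knockdown libraries (adjusted p = 0.728). COX4I1 and COX7A2L did not pass (log2 fold change 0.12 each). COX4I1 had 8.53 to 9.33 CPM in control and 9.61 to 10.06 CPM in knockdown libraries, all knockdown values being higher. COX4I1 has 6 curated transcripts, and its 290 mean counts are not comparable with those of single-transcript subunits.

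**Figure D4:**
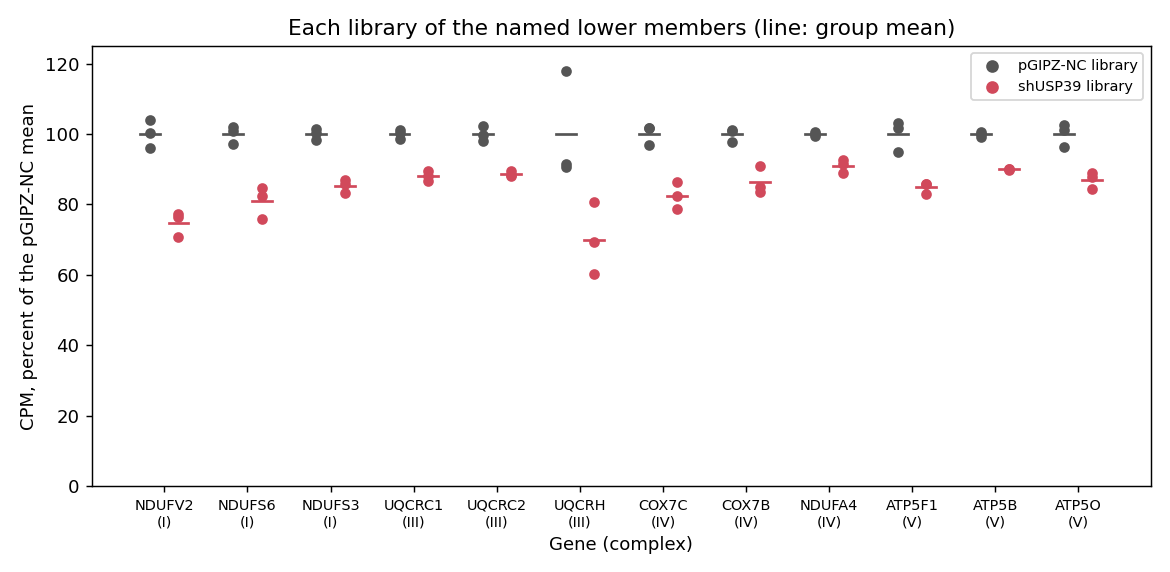
Points show each library of the 12 members that lead the falls in their complexes, as CPM in percent of the mean of the 3 pGIPZ-NC libraries (vertical axis), with a line at each group mean. In every gene the shUSP39 points lie below the pGIPZ-NC points, and UQCRH spreads the most within its groups.

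In complex V 5 of 14 tested members fell (35.7%), beside 17.5% of all genes tested. Of the 14, 12 were negative, and the median log2 fold change was -0.18. At a mean of at least 1000 counts 5 of 7 fell (71.4%), beside 33.1% of all genes tested at that depth. ATP5B, the beta subunit that holds the catalytic sites, had 3254, 3275 and 3229 CPM in control and 2927, 2930 and 2921 CPM in knockdown libraries. Means were 3253 ± 23.3 and 2926 ± 4.74 CPM (SD, n = 3 each), and the level dropped by 10.05%, which exceeded the spread between libraries (log2 fold change -0.15, SE 0.03, adjusted p = 2.44e-05). By these counts ATP5B was the most abundant member, also per kilobase of transcript, with 1756 CPM per kilobase over all libraries, ahead of COX8A with 787 and COX7C with 687. It made up 69.1% of the summed CPM of complex V and 23.7% of that of all members. These shares are of the counts and not of expression, since its F1 partners ATP5A1 and ATP5C1, with 5 and 3 curated transcripts, had 46 and 1.7 counts. Without ATP5B the sum over members still dropped by 8.83%.

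ATP5F1, subunit b of the peripheral stalk, had 564, 557 and 520 CPM in control and 454, 469 and 469 CPM in knockdown libraries. ATP5O, the oligomycin sensitivity-conferring protein at the top of that stalk, had 332, 327 and 312 CPM in control and 288, 273 and 284 CPM in knockdown libraries. Neither gene had overlapping groups, and their log2 fold changes were -0.24 (SE 0.04, adjusted p = 7.61e-06) and -0.20 (SE 0.04, adjusted p = 0.00013). ATP5H, subunit d of the stalk, and ATP5E, the epsilon subunit of F1, fell too (log2 fold changes -0.21 and -0.23). ATP5I and ATP5D were lower in all knockdown libraries than in all control libraries but did not pass (adjusted p = 0.051 and 0.126).

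The ring of subunit c, through which protons flow, is encoded by ATP5G1, ATP5G2 and ATP5G3, which make the same mature protein. ATP5G2 had 30.05, 32.3 and 31.6 CPM in control and 27.3, 29.9 and 29.8 CPM in knockdown libraries, and ATP5G3 had 14.8 to 15.8 and 12.9 to 14.4 CPM. Both were lower in every knockdown library and neither passed (log2 fold changes -0.11 and -0.14, adjusted p = 0.317 and 0.34). ATP5G1, at 34 mean counts, had overlapping groups (log2 fold change 0.29, adjusted p = 0.635). All of these have several curated transcripts or named pseudogenes, so their order of level is uncertain.

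Summed per complex, all groups but complex II separated. Complex I went from 3430 ± 31.6 to 3073 ± 85.1 CPM, and dropped by 10.4%. Complex III went from 2123 ± 23.1 to 1966 ± 8.5 CPM, complex IV from 3000 ± 43.2 to 2801 ± 42.3 CPM and complex V from 4730 ± 64.5 to 4212 ± 19.7 CPM, changes of -7.38, -6.63 and -10.9%. Complex II, in effect SDHB alone, went from 364 ± 1.68 to 350 ± 12.7 CPM, with shUSP39 replicate 1 within the control range. These sums are descriptions over members chosen by name, with no test.

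**Figure D5:**
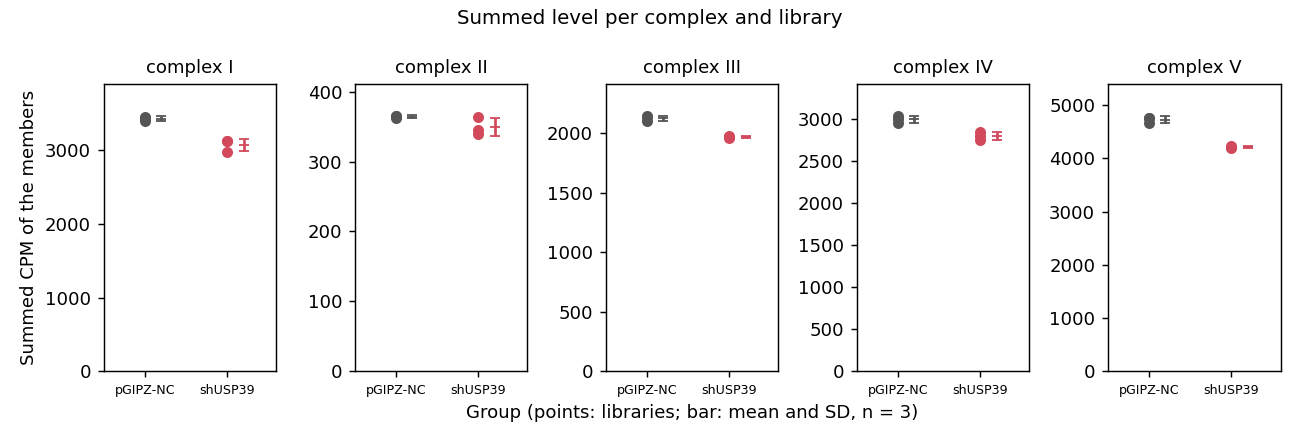
Each panel shows a complex, with the summed CPM of its members on a vertical axis that starts at 0, points for the 3 libraries of each group and a bar for the mean and SD. The shUSP39 points lie under the pGIPZ-NC points in complexes I, III, IV and V, and overlap them in complex II.

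Because USP39 acts in splicing, the use of transcripts within a gene was also compared. Members ATP5G2, ATP5G3, ATP5A1, COX7A2L, COX4I1 and NDUFC1, had 2 or 3 transcripts that passed the filter, and none of these 6 passed (edgeR diffSpliceDGE with Simes and Benjamini-Hochberg adjustment), against 2.03% of the 1628 genes tested. The smallest unadjusted p among them was 0.176, for ATP5G2, and the adjusted p was 1.00 for all 6. Most members have 1 transcript in the table, 72 of 80, and for these a change of splicing within the gene cannot be seen in these counts. Falls were found among members with few and with many exons, 11 of 43 tested with 1 to 4 exons (25.6%) and 11 of 29 with 5 or more (37.9%), beside 15.1% and 18.6% of all genes tested with these exon numbers. The median log2 fold changes were -0.09 and -0.15, beside 0.07 and -0.01 over all such genes. These comparisons by exon number were not matched for depth.

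Genes around the complexes were compared from lists of other roles, to be read beside the 17.5% of all genes tested that fell and the 16.1% that rose. Of 11 tested subunits and carriers outside the symbol rule, ETFDH, which passes electrons from fatty acid oxidation to the quinone pool, fell (log2 fold change -0.61, adjusted p = 0.00602). ATPIF1, the inhibitor of the ATP synthase, and USMG5, a small ATP synthase subunit, rose (log2 fold changes 0.29 and 0.20, adjusted p = 0.00137 and 0.0234). CYC1, cytochrome c1 of complex III, had 888 to 922 CPM in control and 881 to 898 CPM in knockdown libraries and did not pass (log2 fold change -0.02, adjusted p = 0.651). The median over these 11 was -0.02.

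Assembly factors, which build the complexes but are not part of them, gave 6 falls and 6 rises among 49 tested, and neither share exceeded that of all genes tested. Their median log2 fold change was -0.08. Those that fell were TMEM126B of complex I assembly, UQCC2 of complex III, COX16, SCO1 and LRPPRC of complex IV, and OXA1L, the insertase of the inner membrane. OXA1L had a mean of 442 CPM in control and 381 CPM in knockdown libraries (log2 fold change -0.22, adjusted p = 1.40e-05). Those that rose were NDUFAF4 and TMEM261 of complex I assembly, SDHAF1 of complex II, and COX10, COX19 and COA5 of complex IV. COX19, a copper-handling protein, had 55.8 and 76.2 CPM (log2 fold change 0.45, adjusted p = 6.89e-07), and SDHAF1 had 62.0 and 80.1 CPM (log2 fold change 0.37, adjusted p = 1.68e-05). The difference between this list and the subunit genes was not tested.

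Among 11 tested genes of mitochondrial biogenesis and mitochondrial DNA expression, YY1 fell, from a mean of 433 to 390 CPM (log2 fold change -0.15, adjusted p = 0.0014), and the other 10 did not pass. Of 18 tested genes of the tricarboxylic acid cycle and pyruvate entry, 8 fell (44.4%, beside 17.5% of all genes tested), 1 rose and the median log2 fold change was -0.13. The falls included CS, the citrate synthase, IDH3A, SUCLG2, SUCLA2, FH, DLAT and PDK4, of which SUCLA2 (-0.41, adjusted p = 2.22e-06), DLAT (-0.27, adjusted p = 2.15e-06) and SUCLG2 (-0.47, adjusted p = 2.83e-05) had the smallest adjusted p. PDK4, an inhibitor of pyruvate entry, was past 2-fold at a mean of 17 counts. IDH3G, the gamma subunit of isocitrate dehydrogenase, rose (log2 fold change 0.60, adjusted p = 0.000517). Mitochondrial ribosomal proteins, the machinery that makes the mitochondrially encoded subunits, gave 20 falls and 7 rises among 71 tested (28.2% fell, beside 17.5% of all genes tested). Their median log2 fold change was -0.09, beside -0.10 for the oxidative phosphorylation genes, and no test of a difference between these lists was made. Among all genes tested with at least 1000 mean counts 33.1% fell and 19.7% rose. The shares of the tricarboxylic acid cycle and mitochondrial ribosomal lists were not matched for depth, so an excess over the background cannot be read from them.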

How the data were processed

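Total RNA of A2780 cells was extracted with Trizol and sequenced from 3 pGIPZ-NC and 3 shUSP39 cultures, which the series describes as biological triplicates. The authors deposited raw counts of reads for each RefSeq transcript, in 1 table with the libraries as columns. HISAT2, Cufflinks and the build hg19 are named in the submitters' processing notes without their roles. The counter, its annotation and its use of strand are not given in the sources used here. The authors' deposited group means, fold, p-value and q-value columns were not used.

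Counts of 21368 transcripts were summed to 16571 symbols, after 46 date-like symbols were restored through transcript accessions and 1 was left. After filterByExpr and TMM scaling, genes were tested with the robust quasi-likelihood F test of edgeR 4.0.16 (R 4.3.3), with all 6 libraries and group as the only term. An adjusted p under 0.05 (Benjamini-Hochberg over 10695 genes) was called, with a 2-fold change as an added limit. The SE is the log2 fold change divided by the root of F. Transcript usage was tested with diffSpliceDGE. The biological coefficient of variation was 7.59%, and replicates differed by more than sampling noise (a chi-square of 4.69 or more per degree of freedom), so none was counted as a duplicate.

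In counts simulated for 10718 genes of the shUSP39 against pGIPZ-NC comparison, 100% of genes changed by 1 and 80% of those changed by 0.3 on the log2 scale were recovered, with 12 false calls. In the usage test 100% of 4-fold changes were recovered, with 1 false call among 1638 genes. The spread between simulated replicates was set below the biological coefficient of variation of 7.59%. In the gene test only genes with an expected count of at least 100 were changed. The shares recovered can therefore be too high for the real libraries, above all for members with low counts.

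Named members were, per complex, the 3 lower and 3 higher with the smallest adjusted p, any past 2-fold, the SDH genes, listed isoform groups, members with changed usage and the 3 most abundant per kilobase. Genes of other lists were named by smallest adjusted p, up to 3 in each direction, and others were named after their values were seen. Members and lists were chosen with earlier results of these data known, and the mitochondrial ribosomal list by symbol for comparison. Positions and lengths came from GENCODE release 44 on GRCh37, promoter sequences and curated transcript numbers from RefSeq on GRCh38.p14. Alternatives covered scaling (DESeq2 1.42.0 size factors, upper quartile, library size), filters, the DESeq2 Wald test, limma-voom (limma 3.58.1), the replicate block, choice of transcript, and each library left out.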

Additional observations from a re-analysis of the deposited data

How the results depend on the processing

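All 22 members that fell kept a negative fold change in every alternative in which they were tested. Under other scalings, filters and tests of all libraries 19 to 23 members fell, beside 11.6 to 18.3% of all genes tested. The count of members that rose moved from 0 to 1 with upper-quartile scaling, which also moved the median of the members to -0.058 and that of all genes tested from 0.01 to 0.05, so that the median of the members minus that of all genes stayed at -0.11. With each library left out in turn, the members that fell numbered 18 to 27, those that rose 0 to 1, those past 2-fold 0 to 1, and the median lay between -0.14 and -0.10. In these fits 14.6 to 16.5% of all genes tested fell. The lowest count of members that fell came without shUSP39 replicate 2 (18, beside 14.8% of all genes tested). The highest came without shUSP39 replicate 1 (27, beside 16.5%). The members that rose or were past 2-fold in such fits were NDUFA10 without pGIPZ-NC replicate 1, COX6B2 without pGIPZ-NC replicate 2, COX7A1 without pGIPZ-NC replicate 3 and ATP5S without shUSP39 replicate 1, and the cause was not tested. Without any filter the median of all genes was 0.12 and that of the members -0.11. Transcript usage gave 0 members under every alternative run.

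Replicate numbers are shared between the groups. The deviations of same-numbered libraries from their group means correlated at 0.0968, 0.0165 and 0.0279. Replicates 1 and 3 of pGIPZ-NC correlated best with their own number in shUSP39, and pGIPZ-NC replicate 2 with shUSP39 replicate 3 (0.0375). Deviations of 3 libraries sum to 0 in each group, so these values cannot decide if same-numbered libraries are paired. With the replicate number as a block, 27 members fell, the 22 among them, and 1 rose, NDUFA10. With this block 19.4% of all genes tested fell and 17.8% rose, beside 17.5% and 16.1% without it.

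Other settings were chosen after seeing the data. One took shUSP39 replicate 1 as the lone knockdown library, assumed to vary like the controls. There the median log2 fold change of the members was -0.089, beside -0.005 over all genes tested. Among genes with 1 curated RefSeq transcript fitted alone 18 of 33 members fell and 0 rose. Of all 3960 genes in that fit 26.6% fell and 23.8% rose, and the comparison was not matched for depth. Depth limits what can be said of members under 1000 counts.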
